A study of Mus musculus with 4 samples.

Results

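The transcripts of 10 genes of the NF-κB system were followed in microglia of the mouse cortex and hippocampus. They encode the 5 subunits of the transcription factor (Nfkb1, Nfkb2, Rel, Rela and Relb), the classical inhibitors Nfkbia and Nfkbie, the atypical inhibitors Nfkbiz and Nfkbid, and the ubiquitin-editing enzyme Tnfaip3. The genes were listed by symbol with no measured value in the rule, although earlier results of these data were known by then, and all 10 were found among the 28692 genes of the deposited tables. Single-cell RNA sequencing had been carried out on 4 libraries, 1 group with n = 4 and no other group (1 library per mouse by the study's methods). All mice were male C57BL/6J aged 90 days, and PBS had been injected into the tail vein of each, per the labels 24 hours ahead of tissue collection (the study's supplementary note gives another interval). The tissue was homogenised in the cold with a Dounce, without enzymes, and cells positive for CD45 and CD11b were sorted. A sample table of the study adds CX3CR1 to this gate, whereas its methods leave CX3CR1 out. The methods describe a sorter clog and added time at room temperature for the final animal, which the labels tie to no library. The study found its signature of ex vivo activation almost only in cells of that animal, and counts Nfkbiz and Nfkbid among the signature's genes. Replicates are numbered 1 to 4 in title order, and the numbers carry no order.

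NF-κB subunits pair into dimers that rest in the cytoplasm, bound by inhibitory IκB proteins such as the product of Nfkbia. Signals from Toll-like, cytokine and other receptors activate the IκB kinases, the inhibitor is degraded, and the dimer enters the nucleus and induces inflammatory genes together with several of its own inhibitors, which gives negative feedback. In microglia the pathway is known for driving cytokines and chemokines, among them Ccl3 and Ccl4.

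Because feedback runs through the genes' own promoters, the promoters were searched for the binding consensus of the factor, the κB consensus, on both strands. RefSeq windows (GRCm38.p6, 250 bases before to 50 after a start site) were found for 7 of the 10 genes, 12 windows in all, and 8 windows of 6 genes (Nfkb2, Rel, Nfkbia, Nfkbie, Nfkbid and Tnfaip3) held a match, with 1 Nfkb2 match shared by a pair of overlapping windows. Among all 32851 windows 8.46% held one. The window of Rela held none, and Nfkb1 (chr3:135584655-135691547), Relb (chr7:19606217-19629438) and Nfkbiz (chr16:55811375-55838899), all protein-coding genes of the minus strand in GENCODE M21 on GRCm38, are named only. The shared match begins 10 bases after the nearer of the 2 start sites and is not shown. The nearest matches ahead of a start site of these 6 genes follow, 5′ to 3′ on the gene's strand, with the match in capitals, since this consensus is the binding motif known to underlie the feedback.
Nfkbia (chr12:55492657-55492686, minus strand, match starting 29 bases before the start site): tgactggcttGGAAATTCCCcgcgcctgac
Nfkbie (chr17:45555584-45555613, plus strand, 106 bases before): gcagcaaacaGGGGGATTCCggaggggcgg
Nfkbid (chr7:30422215-30422244, plus strand, 181 bases before): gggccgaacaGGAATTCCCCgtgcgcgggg
Tnfaip3 (chr10:19015403-19015432, minus strand, 12 bases before): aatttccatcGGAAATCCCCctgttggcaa
Rel (chr11:23771042-23771070, minus strand, 92 bases before): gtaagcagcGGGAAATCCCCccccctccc
Nfkb2 (chr19:46304716-46304745, plus strand, 11 bases before): ggggccgaaaGGGGCTTTCCcggctggagc
The first Nfkb2 window also held a pair of overlapping matches that begin 39 bases before the start site (chr19:46304689-46304717, plus strand): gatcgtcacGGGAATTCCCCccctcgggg. It counted as 3 matches, which 0.186% of all windows reached. A match is a stretch of letters only, and binding was not measured.

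After cells with fewer than 400 genes or more than 10% mitochondrial UMIs (unique molecular identifiers, each counting 1 captured transcript) were left out, 13002 cells remained, between 2576 and 3692 per library. They held between 5841671 and 11267195 UMIs per library, with a median of 1905 to 2936 per cell. The microglial markers P2ry12 and Tmem119 stood at 5168 to 5661 CPM and 2877 to 3070 CPM (counts scaled to a common library total). The 5 neutrophil markers were at 0 in every library, while the 8 border macrophage markers summed to 14.3, 39.9, 60.8 and 85.1 CPM in replicates 1 to 4 and the 6 monocyte markers to between 12.5 and 55.3 CPM. The 25 genes of the study's ex vivo activation signature, Fos among them, summed to 2751, 2821, 2909 and 4638 CPM in replicates 1 to 4. Whether replicate 4 is the animal of the clog was not tested. Replicate 4 also stood apart by its immediate early genes, which are induced within minutes of a stimulus. In it 34.6% of cells held a UMI of Fos or Egr1, against 1.54%, 4.96% and 3.14% in replicates 1 to 3. Levels and comparisons that could rest on this library or these cells are therefore also given without them. Of the 13054 distinct barcodes, 84 occurred in more than 1 library.

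Nfkbia had the highest level of the 10 and Nfkbiz the lowest, and the levels of the 5 subunits differed little between mice. Since a 3′ library tags each transcript once, levels are given as CPM without a correction for length. Nfkb1, which encodes the precursor of p50, stood at 116, 108, 117 and 113 CPM in replicates 1 to 4, a mean of 114 ± 3.97 (SD, n = 4). Rel, whose product c-Rel carries a transactivation domain, stood at 65.8, 69.8, 68.8 and 63.1 CPM. Rela, encoding p65, the main transactivating subunit, stood at 55.1, 61.9, 63.7 and 68.7 CPM. The ranges of Rel and Rela overlapped, whereas that of Nfkb1 lay above both. The 2 subunits of the non-canonical branch were lower. Relb stood at 26.4, 27.8, 24.99 and 24.7 CPM, and Nfkb2, the precursor of p52 and partner of RelB, at 12.9, 13.1, 14.0 and 12.4 CPM. Nfkb2 overlaps Psd, which lies on the opposite strand. The highest library exceeded the lowest 1.08-fold for Nfkb1, 1.13-fold for both Relb and Nfkb2, 1.11-fold for Rel and 1.25-fold for Rela.

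Among the inhibitors, Nfkbia varied more than any subunit, its highest library exceeding the lowest 1.48-fold, whereas Nfkbie (1.22-fold) varied no more than Rela. Nfkbia, which encodes IκBα and is itself induced by NF-κB, stood at 292, 197, 221 and 233 CPM, a mean of 236 ± 40.2 (SD, n = 4). The interval of replicate 1 for counting error (279 to 304 CPM, exact Poisson, 95%) lay above those of the other 3 libraries, and its scatter was 57.1 times the sampling variance, the highest of the 10. Nfkbie, which encodes IκBε, stood at 25.4, 25.5 and 25.7 CPM in replicates 1 to 3 and at 21.1 CPM in replicate 4. The counting interval of replicate 4 (18.2 to 24.3 CPM) overlapped those of the others, the lowest of which began at 21.7 CPM.

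Nfkbiz and Nfkbid encode atypical IκB proteins that act in the nucleus. Nfkbiz, the product of which is needed for a subset of secondary response genes, stood at 5.81, 8.34, 3.94 and 10.6 CPM, a 2.68-fold range, the widest of the 10. Nfkbid stood at 7.94, 9.32, 8.90 and 12.8 CPM. Tnfaip3, which encodes A20, an enzyme that removes activating ubiquitin chains upstream of the kinases, stood at 14.9, 11.2, 13.2 and 18.8 CPM. For all 3, replicate 4 was the highest library. Its counting interval for Nfkbiz (8.54 to 12.9 CPM) did not overlap that of replicate 3 (2.5 to 5.91 CPM).

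**Figure D1:**
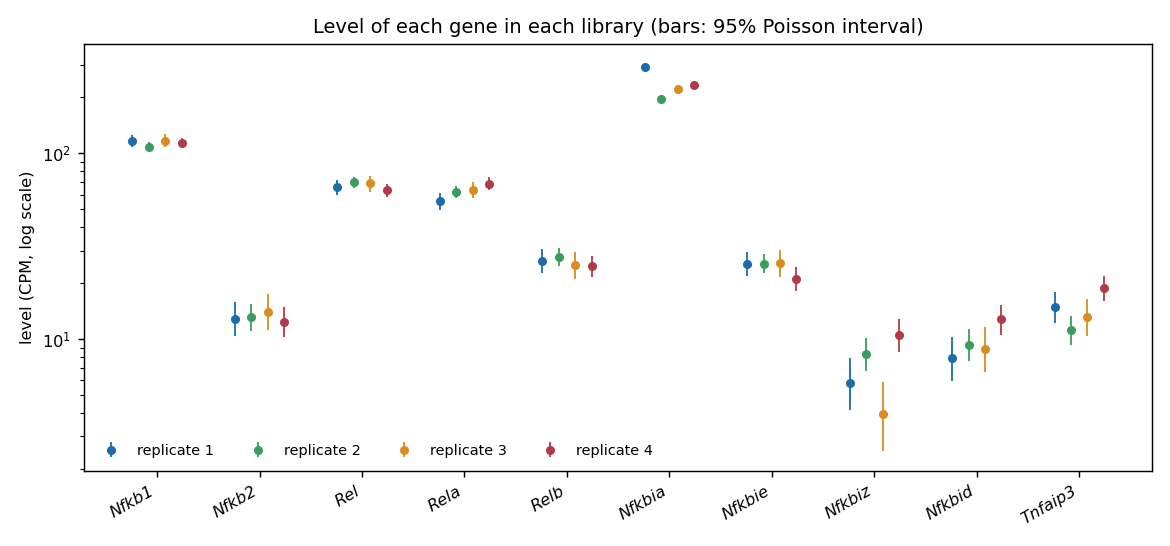
Level of the 10 genes in each of the 4 libraries, in CPM on a log scale, with exact 95% Poisson intervals as bars. Nfkbia lies between 197 and 292 CPM, above Nfkb1 at 108 to 117 CPM, and Nfkbiz and Nfkbid lie lowest.

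By mean level the order was Nfkbia, Nfkb1, Rel, Rela, Relb, Nfkbie, Tnfaip3, Nfkb2, Nfkbid and Nfkbiz. Neighbours whose libraries overlapped were Rel and Rela, Relb and Nfkbie, Tnfaip3 and Nfkb2, Nfkb2 and Nfkbid, and Nfkbid and Nfkbiz. The other neighbours did not overlap.

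With 1 group, the levels allow 1 question, whether a library lies apart from the other 3. It was asked with Dixon's range test (two-sided, 95%) on log2(CPM + 1), which divides the gap of the outermost library by the range. A library lay apart for 1 of the 10 genes, Nfkbie (ratio 0.938, replicate 4 low). Over all 11047 genes with a mean of at least 1 CPM the percentage was 4.85. Nfkbia, for all its scatter, gave 0.570. Among cells with at least 1000 genes no member had a library apart, and the ratio of Nfkbie was 0.629.

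The SD of log2 levels ran from 0.05 for Nfkb1 to 0.54 for Nfkbiz, around a median of 0.13 over all genes tested. Of the 5 subunits, 1 was highest in replicate 4 (Rela), as were 3 of the 5 inhibitors and brakes (Nfkbiz, Nfkbid and Tnfaip3). Replicate 4 was the highest library for 31.1% of all genes. When the cells with a Fos or Egr1 UMI were left out, these 4 genes were still highest in replicate 4, at 66.2, 9.46, 12.3 and 20.4 CPM, and Relb joined them at 30.5 CPM. Nfkbie in replicate 4 then stood at 22.0 CPM and its ratio fell to 0.763, below the critical value, while that of Nfkb1 rose above it (0.848, replicate 2 low). What sets the level of replicate 4 was not tested.

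Detection followed the order of the levels except that Nfkbie came ahead of Relb, and its rates were low. To make the share of cells with a UMI comparable, each cell was thinned at random to 1000 UMIs, which left 2491 to 3669 cells per library. A UMI of Nfkbia was found in 25.01%, 16.6%, 19.1% and 20.8% of cells of replicates 1 to 4. Unthinned, the share was between 36.1% and 43.8%. For Nfkb1 the thinned share was 10.9% ± 0.212 (SD, n = 4), for Rel 6.73% ± 0.495 and for Rela 5.99% ± 0.566. The remaining 6 genes were met in 0.703% (Nfkbiz) to 2.61% (Nfkbie) of thinned cells on average, with Relb at 2.42%. In 54.4% to 59.2% of thinned cells not 1 of the 10 genes was detected, a share set by the sampling depth as well as by expression.

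Nfkbia also had the highest ratio of variance to mean between cells in replicates 2 to 4, and in replicate 1 the highest after Relb. Any excess of this ratio over 1 grows with level, and Nfkbia had the highest level. Genes of a like level were not compared, so the order of the ratios does not rank variability. Nfkbia is described by it all the same. Its variance over thinned cells was 1.09 to 1.21 times its mean in the 4 libraries, where a value of 1 is pure sampling and the median gene lay between 1.002 and 1.010. A single cell of replicate 2 held 18 Nfkbia UMIs before thinning, and cells of replicates 1, 3 and 4 reached 7, 9 and 13. For the other 9 genes the ratio lay between 0.972 and 1.098, and no cell held more than 4 UMIs.

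**Figure D2:**
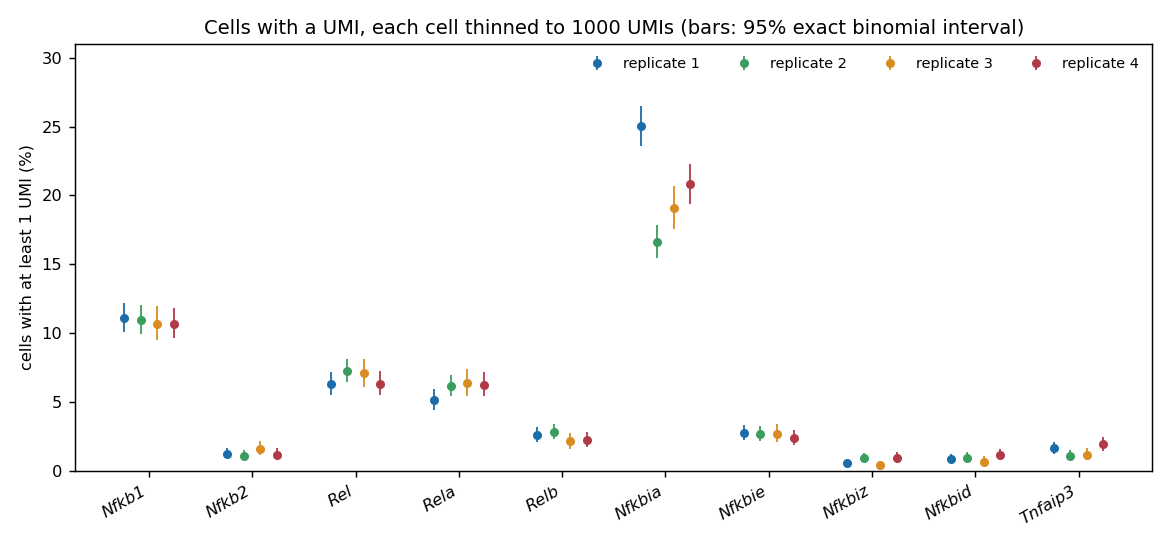
Percentage of cells with at least 1 UMI of each gene in each library after every cell was thinned to 1000 UMIs, with exact 95% binomial intervals as bars. Nfkbia is detected in 16.6% to 25.01% of cells and Nfkb1 in 10.7% to 11.1%, and 6 genes stay below 3%.

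Cells in which a chemokine transcript was detected were compared with the others, to ask whether the genes of NF-κB itself differ where 2 of its target genes are found. A cell counted as chemokine positive with at least 1 UMI of Ccl3 or Ccl4, which encode the macrophage inflammatory proteins. There were 108, 185, 136 and 354 such cells in replicates 1 to 4 (3.02%, 5.01%, 5.28% and 11.2%), and 578 of the 783 held a single chemokine UMI. The classes are those of detection, since a cell without a UMI may express the genes below the depth reached, and the share of cells that free RNA alone would give was not measured. Positive cells were somewhat deeper (median 2084 to 3104 UMIs, against 1897 to 2924 in negative cells). Counts were summed per library and class and fitted with edgeR's quasi-likelihood test, with the library as a block. The SE given for these fits is the absolute log2 fold change divided by the square root of the test's F value. It is not a standard error reported by the fit.

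None of the 10 genes differed between the classes at an adjusted p of 0.05, although 8 of the 10 fold changes were above 0. Over all 9873 genes tested, 0.425% were called higher and 0.0912% lower. At an unadjusted p under 0.05 there were 3 of the 10 genes, Relb, Nfkbia and Nfkbid, all higher in positive cells, where 4.39% of all genes were higher and 3.37% lower at that level. DESeq2 called none of the 10 either and had 2 at an unadjusted p under 0.05. The median log2 fold change of the 10 was 0.24, against -0.0023 over all genes tested.

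For Nfkbia the positive cells of replicates 1 to 4 had 312, 263, 234 and 266 CPM and the negative cells 291, 193, 221 and 228 CPM. It was higher in positive cells in all 4 libraries, though the classes overlapped between libraries. The share of all genes higher in all 4 libraries was not taken. The log2 fold change was 0.24 ± 0.07 (SE) with an unadjusted p of 0.00066 in edgeR's test and an adjusted p of 0.094. It passed when cells were called by Ccl3 alone (0.34, adjusted p 0.0031) and when the cells with the most UMIs were left out (0.29, adjusted p 0.016), and under none of the other 14 alternatives.

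Nfkbid was the only gene of the 10 whose classes did not overlap, as 2.28% of all genes were higher and 2.69% lower without overlap. It stood at 16.6, 12.4, 23.1 and 17.2 CPM in positive cells and at 7.63, 9.13, 8.01 and 12.2 CPM in negative cells. These levels rest on 39 UMIs in positive cells, and the log2 fold change of 0.75 ± 0.29 (SE) had an adjusted p of 0.39 in edgeR's test. Relb stood at 49.9, 46.4, 31.7 and 22.6 CPM in positive cells and at 25.5, 26.6, 24.6 and 24.96 CPM in negative cells. It was higher in replicates 1 to 3 and not in replicate 4, with a log2 fold change of 0.43 ± 0.19 (SE) and an adjusted p of 0.57. Without replicate 4 the log2 fold changes were 0.72 for Relb, 0.25 for Nfkbia and 0.94 for Nfkbid, and without cells with a Fos or Egr1 UMI 0.47, 0.21 and 0.83, none past the threshold.

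None of the other 7 genes was at an unadjusted p under 0.05. Their log2 fold changes ran from -0.12 (Rel) to 0.32 (Nfkbie), and their adjusted p-values in edgeR's test were 0.78 or higher. Nfkb1 gave -0.11 ± 0.10 (SE) and Rela 0.07 ± 0.12. Approximate intervals of 2 such SE on either side ran from -0.31 to 0.09 for Nfkb1 and from -0.37 to 0.14 for Rel on the log2 scale. That of Rela ran from -0.17 to 0.32. For the rarer Nfkbiz the interval was much wider, from -0.47 to 0.97.

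Cells with a single chemokine UMI and cells with more were then set apart, since most positive cells held only 1. In the 205 cells with 2 or more chemokine UMIs, 132 of them from replicate 4, Relb stood at 55.8, 103, 110 and 33.7 CPM in replicates 1 to 4, on 2, 12, 7 and 15 UMIs. In cells with 1 chemokine UMI it stood at 48.9, 33.9, 14.1 and 15.1 CPM. Cells with 2 or more thus had the higher Relb level, though in replicate 1 on 2 UMIs only. The negative cells stood at 25.5, 26.6, 24.6 and 24.96 CPM. Cells with 1 chemokine UMI lay above them in replicates 1 and 2 and below them in replicates 3 and 4.

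Nfkbia in the same cells stood at 140, 532, 394 and 310 CPM, below the negative cells in replicate 1 (5 UMIs) and above them in the other 3 libraries. Nfkbid stood at 27.9, 51.4, 47.3 and 22.5 CPM, on 20 UMIs in all. These levels lay above the negative cells, but that of replicate 1 is 1 UMI and gives no direction. Nfkb1 stood at 112, 103, 47.3 and 76.3 CPM, against 118, 108, 118 and 115 CPM in negative cells. In replicates 1 and 2 the levels were close, and those of replicates 1 and 3 rest on 4 and 3 UMIs. How many of all genes lay on the same side of the negative cells in every library was not counted.

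Tested against the negative cells, with cells of 1 chemokine UMI left out, the log2 fold changes were 1.15 ± 0.34 (SE) for Relb, 0.58 ± 0.17 for Nfkbia, 1.61 ± 0.49 for Nfkbid and -0.56 ± 0.25 for Nfkb1. None of them passed, with adjusted p-values of 0.097, 0.093, 0.11 and 0.56 in edgeR's test. After every cell was thinned to 1000 UMIs and classed again, the comparison of all positive cells gave 0.32 for Relb, 0.34 for Nfkbia and 0.39 for Nfkbid.

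**Figure D3:**
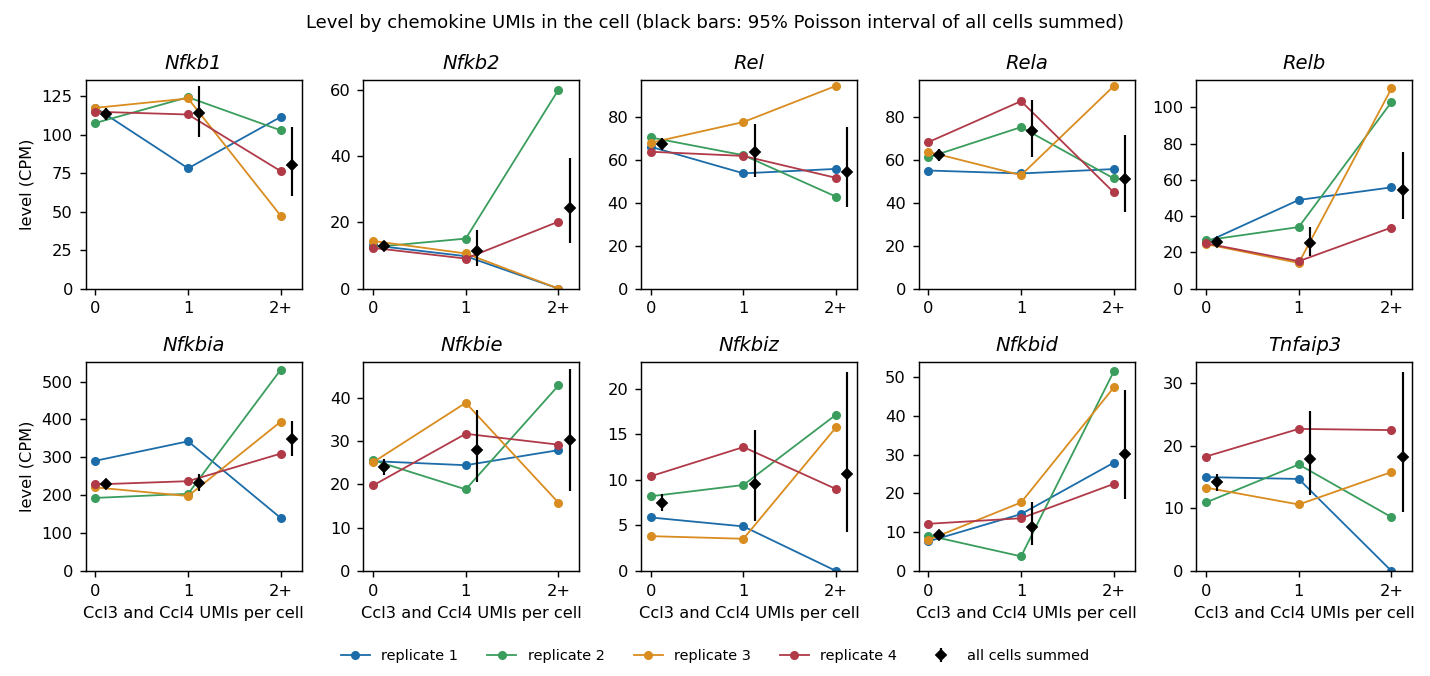
Level of each gene in CPM in cells with 0, 1 and 2 or more UMIs of Ccl3 and Ccl4, with a coloured line per library and black diamonds with exact 95% Poisson intervals for all cells summed. Over all cells summed, Relb lies at 25.6 CPM in cells without a chemokine UMI and at 54.4 CPM in cells with 2 or more, Nfkbia at 229 and 348 CPM, Nfkbid at 9.38 and 30.2 CPM, and Nfkb1 at 114 and 80.2 CPM.

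Around these 10 genes, the pathway was described with 4 lists, chosen with earlier results of these data known. Of 101 listed genes 83 were tested, and 8 were called higher in chemokine positive cells and 0 lower, where 0.425% of all genes tested were called higher and 0.0912% lower. In the list of NF-κB target genes 7 of 26 tested members were higher, with a median log2 fold change of 0.49 against -0.0023 over all genes tested. Of the receptors and adaptors 1 of 26 was higher, and of the 10 kinases and the 21 ubiquitin enzymes and brakes none, with medians of 0.01, -0.04 and 0.07.

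Among the targets, Tnf, the proinflammatory cytokine, stood at 12.5, 15.5, 0 and 9.03 CPM in positive cells and at 0.880, 2.07, 2.73 and 3.17 CPM in negative cells. Its log2 fold change was 2.01 ± 0.49 (SE) with an adjusted p of 0.020 in edgeR's test, although replicate 3 had none in positive cells. The positive cells of replicates 1 and 2 held 3 and 10 Tnf UMIs. Gadd45b, a stress-induced regulator of kinase signalling, reached 3.0 ± 0.71, from levels under 7 CPM in either class. It stood at 4.16, 4.64, 5.77 and 6.32 CPM in positive cells and at 0.147, 0.282, 0.728 and 1.14 CPM in negative cells. In replicates 1 and 3 the positive cells held 1 and 2 Gadd45b UMIs, so this fold change rests on very few UMIs. Plaur, the urokinase receptor, gave 1.5 ± 0.22, Ier3, an early response gene, 1.48 ± 0.27, and Cd83, a surface marker of activated myeloid cells, 1.02 ± 0.14.

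The other 3 were smaller changes of more abundant transcripts. Gpr84, a receptor for medium-chain fatty acids, rose by 0.50 ± 0.08 on the log2 scale, and Bcl2a1b, an inhibitor of apoptosis, by 0.34 ± 0.06. Bcl2a1b has near-identical paralogs, so its counts are uncertain. Tlr2, the receptor for bacterial lipopeptides and the 1 gene called from the list of receptors and adaptors, rose by 0.49 ± 0.10. Plaur was called under all 16 alternatives, Gadd45b under 5 of 10 and Tnf under 5 of 9. In replicate 1, however, Plaur stood at 12.5 CPM in positive cells against 14.4 CPM. The positive cells there held 3 Plaur UMIs, too few to give a direction. Leaving out 1 library ended the call of Gadd45b (without replicate 1, 2 or 3, adjusted p 0.059 to 0.12), Tnf (without replicate 1 or 2, 0.078 and 0.53), Cd83 (without replicate 1, 0.37) and Tlr2 (without replicate 2, 0.17), and Cd83 also lost it without cells with border macrophage and monocyte markers (0.074), among cells with at least 1000 genes (0.11) and without the cells with the most UMIs (0.15). Without cells with a Fos or Egr1 UMI, Gadd45b was no longer called (0.079) and Tnf fell below the filter on low counts, whereas the other 6 were called. Without the library block only Plaur was called, and after thinning to 1000 UMIs Ier3, Gpr84, Tlr2 and Bcl2a1b were not. Bcl2a1b was not called at 2 or more chemokine UMIs either (0.15). DESeq2 called all of these genes except Tnf (adjusted p 0.22).

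A second split of the same cells was made by Fos and Egr1, transcription factors of the immediate early response. There were 55, 183, 81 and 1093 positive cells in replicates 1 to 4. None of the 10 genes differed at an adjusted p of 0.05 in edgeR's test, where 0.648% of 10192 genes were called higher and 0.0392% lower. Only Relb was at an unadjusted p under 0.05 (lower, as were 2.6% of all genes, while 3.37% were higher), and DESeq2 had none of the 10 at either level. Relb stood at 24.5, 22.1, 27.6 and 15.0 CPM in positive cells and at 26.4, 28.1, 24.9 and 30.5 CPM in negative cells. It was lower in positive cells in replicates 1, 2 and 4, with a log2 fold change of -0.70 ± 0.21 (SE) and an adjusted p of 0.090. The difference passed without replicate 3 (-0.81, adjusted p 0.014). In positive cells 51 of the 74 Relb UMIs came from replicate 4, and without that library the log2 fold change was -0.20 with an SE of 0.32.

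Nfkbia in this split stood at 343, 217, 240 and 236 CPM in positive cells and at 291, 196, 221 and 232 CPM in negative cells. It was higher in positive cells in all 4 libraries, but the difference of 0.09 ± 0.07 (SE) on the log2 scale did not pass the paired test (adjusted p 1.0 in edgeR's test). Nfkbiz stood at 8.16, 15.8, 4.61 and 12.4 CPM in positive cells against 5.77, 7.90, 3.91 and 9.46 CPM. The positive cells held 1, 10, 1 and 42 Nfkbiz UMIs, too few in replicates 1 and 3 to give a direction. Its log2 fold change was 0.57 ± 0.33 (SE), with an adjusted p of 0.91 in edgeR's test. How many of all genes were higher in all 4 libraries was not counted. The remaining genes ran from -0.31 (Nfkb2) to 0.32 (Nfkbid). Nfkb2 was lower in positive cells in all libraries without overlap, on 48 UMIs in positive cells and none in replicate 1. Over all genes 2.23% were lower and 1.8% higher in this way.

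Of the pathway lists 2 of 83 genes were higher in Fos or Egr1 positive cells and 1 was lower, against 0.648% and 0.0392% of all genes. Il1b, the proinflammatory cytokine, gave 2.78 ± 0.44 (SE) and Ccl2, a monocyte chemoattractant, 1.46 ± 0.30. Both were highest in the 55 positive cells of replicate 1, at 97.9 and 57.1 CPM, and 6 of those cells held 2 or more UMIs of border macrophage and monocyte markers. Without such marker cells Il1b gave 1.30 ± 0.62 and was no longer called (adjusted p 1.0), whereas Ccl2 gave 1.42 ± 0.26 and was. Ccl2 lost the call without replicate 4 (adjusted p 0.51). Gpr84 fell by 0.32 on the log2 scale (SE 0.09), and was not called without replicate 2 or 4, nor without the marker cells (adjusted p 1.0, 0.78 and 0.17). In replicate 3 Gpr84 was higher in positive cells, at 147 against 145 CPM. Ccl2 stood there at 4.61 CPM in positive cells against 6.40 CPM, but on 1 UMI in positive cells, which gives no direction. None of the 3 was called without the library block. DESeq2 called Il1b but neither Ccl2 (adjusted p 0.34) nor Gpr84, and thinning to 1000 UMIs also ended the calls of Ccl2 and Gpr84.

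The splits were compared directly in cells that belonged to 1 of them alone. The 181 cells of both classes, 160 of them from replicate 4, were left out. That left 103, 173, 132 and 194 chemokine-only cells and 50, 171, 77 and 933 Fos or Egr1-only cells. Cells with a Fos or Egr1 UMI made up 4.63%, 6.49%, 2.94% and 45.2% of chemokine positive cells in replicates 1 to 4. Among chemokine negative cells they made up 1.44%, 4.88%, 3.16% and 33.3%. The filter on low counts kept 7 of the 10 genes and left out Nfkb2, Nfkbiz and Nfkbid.

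Relb was the 1 gene of the 7 that differed. It stood at 43.9, 46.8, 32.6 and 29.2 CPM in chemokine-only cells and at 9.08, 20.6, 28.8 and 15.0 CPM in Fos or Egr1-only cells, so that the classes did not overlap, as for 1.85% of all genes higher and 1.34% lower. The log2 fold change was 1.21 ± 0.28 (SE), or 2.31-fold, with an adjusted p of 0.0081 in edgeR's test, where 0.329% of 6692 genes were called higher and 0.134% lower. At an unadjusted p under 0.05, it was likewise the 1 gene of the 7, where 3.81% of all genes were higher and 3.92% lower. It rests on 66 and 62 Relb UMIs. In Fos or Egr1-only cells these were 1, 12, 6 and 43 in replicates 1 to 4, so the 9.08 CPM of replicate 1 is 1 UMI. The lack of overlap rests on 29.2 against 28.8 CPM. The call was lost without replicate 2 (1.11, adjusted p 0.30), without replicate 4 (0.999, adjusted p 0.47) and without the library block (1.17, adjusted p 0.075). In DESeq2 its log2 fold change was 1.10 with an unadjusted p of 0.0011 and no adjusted p, since the tool's own filter set it aside. Without cells with border macrophage and monocyte markers it was 1.31 with an adjusted p of 0.0036.

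The other 6 genes gave log2 fold changes from -0.13 (Rel) to 0.36 (Nfkbie), with adjusted p-values of 0.76 or higher in edgeR's test. Nfkbia stood at 285, 269, 228 and 256 CPM in chemokine-only cells and at 291, 220, 230 and 228 CPM in the others, higher in 2 of 4 libraries. Of the pathway lists 6 of 63 genes were higher and 0 lower, against 0.329% and 0.134% of all genes. Gpr84 (0.89 ± 0.12, SE), Cd83 (1.14 ± 0.16), Tlr2 (0.70 ± 0.13), Plaur (1.26 ± 0.32) and Bcl2a1b (0.39 ± 0.08) were those also higher in the first split, which shares these cells. Cxcl16, a chemokine that is also a scavenger receptor, was the sixth at 0.60 ± 0.16. Gpr84 alone kept its call whichever library was left out. Without replicate 2 the calls of Tlr2, Bcl2a1b, Plaur and Cxcl16 were lost (adjusted p 0.19, 0.089, 0.42 and 0.61), without replicate 4 those of Cd83, Bcl2a1b, Plaur and Cxcl16 (0.059, 0.31, 0.40 and 0.78), and without replicate 3 that of Plaur (0.28). Cxcl16 was also lost without the marker cells (0.20) and in DESeq2 (0.34), which gave Plaur no adjusted p. Plaur, Bcl2a1b and Cxcl16 were not called without the library block (0.13, 0.16 and 0.35). In replicate 3 Cxcl16 was lower in chemokine-only cells (68.1 against 86.4 CPM). Plaur in replicate 1 stood at 13.2 CPM in chemokine-only cells against 18.2 CPM, on 3 and 2 UMIs, which give no direction. After thinning to 1000 UMIs, Gpr84, Cd83, Tlr2 and Bcl2a1b were not called (adjusted p 0.066 to 0.90).

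**Figure D4:**
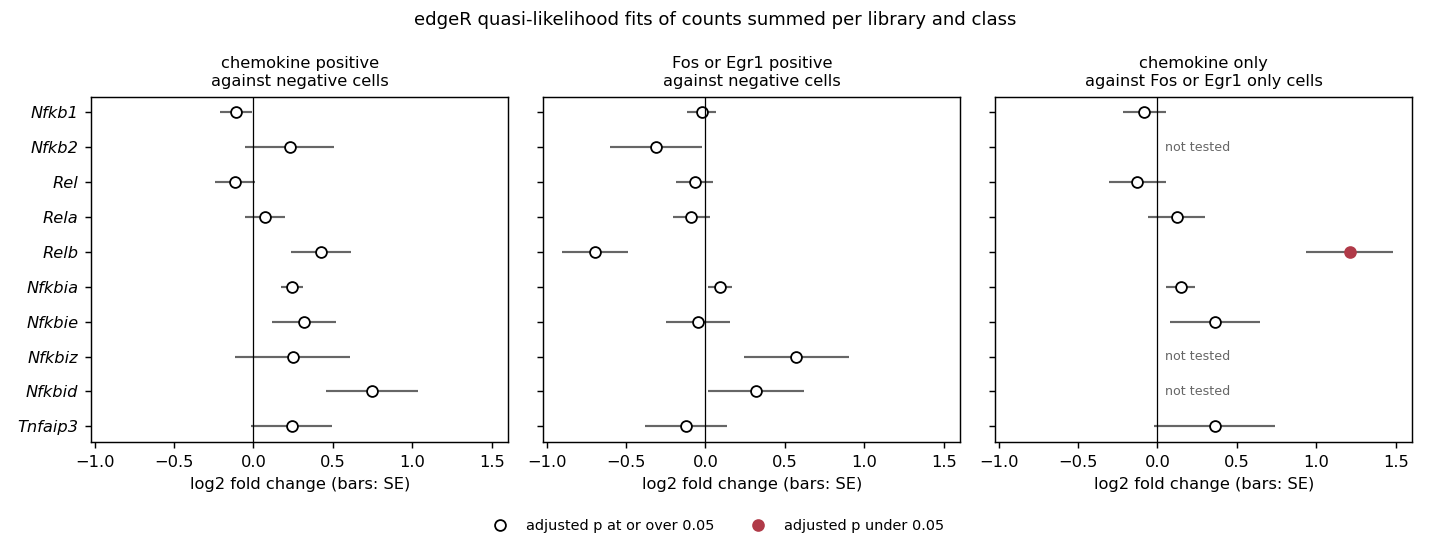
Log2 fold changes of the 10 genes with SE in the 3 comparisons of cells, from edgeR fits of counts summed per library and class (4 libraries each). Relb is the 1 gene past an adjusted p of 0.05, at 1.21 in the direct comparison, where 3 genes were not tested.

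Cells with markers of another cell type were few, and of the 10 genes Nfkbiz had the largest ratio of levels between them and the rest. The 143 cells with 2 or more UMIs of border macrophage or monocyte markers had Nfkbiz at 39.0, 51.5, 34.2 and 24.8 CPM in replicates 1 to 4, on 3, 9, 4 and 6 UMIs. In the other cells it stood at 5.44, 7.66, 3.32 and 10.2 CPM. Summed over libraries the levels were 36.0 CPM (22.6 to 54.6, exact Poisson, 95%) and 7.10 CPM (6.21 to 8.07). Nfkb2 in the marker cells was at 27.8 CPM (16.2 to 44.6), against 12.8 CPM (11.6 to 14.1) in the rest, but was lower in replicate 3. This split was described only and was not tested, and no share over all genes was taken for it. Marker cells made up 0.926%, 1.62%, 0.735% and 3.11% of chemokine positive cells and 0.779%, 0.713%, 0.943% and 1.85% of negative cells.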

How the data were processed

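The authors sequenced 10x 3′ libraries (kit version 2) and deposited unnormalised UMI counts per gene and cell, counted by Cell Ranger 2.2.0 on genome mm10 (GRCm38) with filtered Ensembl genes. Cells had already been called, and no doublets were removed here. Counts were summed per library, scaled to CPM and tested with Dixon's range test. Sums per library and class were fitted with edgeR 4.0.16 (R 4.3.3; TMM, filterByExpr, Benjamini-Hochberg over all genes kept), the library as a block since both classes come from 1 mouse. DESeq2 1.42.0 was an alternative. Intervals were exact (Poisson for counts, binomial for shares, 95%) and cover counting error only. Ccl3, Ccl4, Fos and Egr1 set the classes and were not tested. Scripts were tested on simulated data. All 10 genes were named throughout. Of the pathway lists, up to 8 genes called in each direction were named, by size. The members and lists were chosen with earlier results of these data known.

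The alternatives were other scalings, pseudocounts, filters, class definitions and marker exclusions, thinning to 1000 UMIs, no library block, DESeq2, and leaving out each library. Leaving out Fos or Egr1 positive cells from the levels was added after seeing the data. Coordinates are those of RefSeq windows.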

Additional observations from a re-analysis of the deposited data

Results flagged for a closer look

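The level of Nfkbie in replicate 4 (21.1 CPM) lay below the other 3 libraries (25.4 to 25.7 CPM), the gap being 0.938 of the range. Such a test flags about 1 in 20 sets of 4 by chance, and 4.85% of all genes had a library apart. The share of cells with a Fos or Egr1 UMI was higher in replicate 4 (34.6%) than in the others (1.54% to 4.96%), the gap being 0.897 of the range. Whether the Nfkbie value is tied to this share was not tested, and without those cells the gap of Nfkbie was 0.763 of its range.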

How the results depend on the processing

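In the levels, 9 of 10 alternatives left 1 member with a library apart and cells with at least 1000 genes left 0. Without a filter on level, 13.2% of all genes had one. Without cells with a Fos or Egr1 UMI the member apart was Nfkb1 and not Nfkbie. The library block, which pairs the classes of a mouse, raised the number of calls. Without it, 9 genes were called higher and 0 lower in chemokine positive cells, 11 and 0 in Fos or Egr1 positive cells, and 5 and 1 in the direct comparison, where members called fell to 0. It changed no other member's call.

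In chemokine positive cells, genes called lower came to 16 by Ccl3 alone, 15 without cells with a Fos or Egr1 UMI, 19 without a filter and 3 with DESeq2, and thinning left 10 called higher. Members called higher came to 1 (Nfkbia) by Ccl3 alone and without the cells with the most UMIs. Leaving out 1 library gave 7 to 19 genes called lower, the 19 without replicate 4, and 37 to 43 higher. Of the member fold changes, Rela turned to -0.36 at 2 or more UMIs, -0.076 by Ccl4 alone and -0.37 after thinning, and Nfkb2 to -0.0096 after thinning and -0.13 without replicate 2 (up to 0.38 without the others).

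In Fos or Egr1 positive cells, genes called higher were 2 after thinning, 16 without cells with border macrophage and monocyte markers and 106 without a filter. Genes called lower were 2 by Fos alone and 0 after thinning, without those marker cells and with DESeq2. Leaving out 1 library gave 41 to 70 genes higher (41 without replicate 4), 1 to 6 lower (1 without replicate 2, 2 without replicate 4) and 0 to 1 members lower (Relb, without replicate 3). Thinning turned Nfkb2 to 0.13, Rela to 0.082, Nfkbie to 0.26, Nfkbid to -0.36 and Tnfaip3 to 0.32. DESeq2 turned Nfkb1 to 0.029, Nfkbie to 0.017 and Tnfaip3 to 0.029, leaving out replicate 4 turned them to 0.11, 0.070 and 0.27 (lowest without another library -0.079, -0.13 and -0.20), and leaving out the block turned Tnfaip3 to 0.11. None of these fold changes passed the threshold.

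In the direct comparison, thinning left 2 genes called higher and 0 lower, and kept 2 of the 10 genes, without Relb. DESeq2 called 13 higher and 17 lower, and 33 were lower without a filter. Leaving out 1 library gave 9 to 25 genes higher (9, 14 and 10 without replicates 2, 3 and 4), 4 to 17 lower (17 without replicate 1, 4 without replicate 3) and 0 to 1 members higher. Nfkb1 turned to 0.15 after thinning, Rela to -0.085 without replicate 2 (up to 0.86 without another) and Nfkbie to -0.038 without replicate 4 (up to 0.55). The causes were not tested. Depth limits the rarer members most, since Nfkbiz and Nfkbid had 253 and 328 UMIs in 13002 cells.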
